A study of Homo sapiens with 6 samples.

Results

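Transcribed pseudogenes, chosen by their names, were compared between SiSFPQ and SiCtrl U-2OS cells. A gene was taken when its symbol ended in P or in P and digits, as pseudogene symbols do, when it had a symbol distinct from its identifier, and when its counts summed to at least 60 over the 6 libraries. HCP5, RMRP and symbols that begin with LINC, SNHG or MIR were left out. This gave 164 genes of the 35036 in the table, out of 319 whose symbols have that form at any count. All 164 were among the 6325 genes that passed the filter on low counts. The rule used the summed count over both groups, so the levels of these genes are a description. It did not use the difference between the groups, but the set was chosen with earlier results of these data known.

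Pseudogenes are copies or remnants of genes that no longer make the parent's protein. Processed pseudogenes arose when a spliced mRNA was copied back into the genome, unprocessed ones from duplicated stretches of DNA, and unitary ones from a gene that lost its function with no working copy left. Some are transcribed and end in poly(A) tails, and a few of these RNAs are known to bind microRNAs or proteins shared with the parent's transcript. SFPQ is an RNA-binding protein of the nucleus and of paraspeckles, with known roles in splicing, polyadenylation and transcription.

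The study compared 3 SiSFPQ libraries, from cells transfected with a small interfering RNA against SFPQ, with 3 SiCtrl libraries, from cells transfected with a control. U-2OS is a human osteosarcoma cell line, and the cells of both groups were also given actinomycin D, which blocks transcription by binding DNA; its dose and duration are not given in the sources used here. RNA was selected for poly(A) tails. The labels do not say whether the 3 libraries of a group came from separate cultures, so the p-values measure only the spread between these libraries, which may be technical.

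The table lists non-coding genes and held 1298658 to 1599566 counts per SiSFPQ library and 1385532 to 1533974 per SiCtrl library. These totals are a part of each library and not its depth, and CPM is scaled to the table's counts with TMM factors, not to all reads of a library. SFPQ was not analysed here, so the groups rest on their labels, and none of the 9 marker genes for osteoblasts, blood, epithelium, endothelium and red cells was listed, so the cell type could not be checked. The counting did not separate overlapping genes on opposite strands: MALAT1 and TALAM1, which lie over each other, held 72563 and 72552 counts over the 6 libraries. A lower or higher CPM cannot tell less RNA of a gene per cell from fewer cells that make it.

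The symbols were checked against annotation. RefSeq classes 160 of the 164 as transcribed pseudogenes. It classes 3, LINP1, NHIP and MILIP, as long non-coding RNAs whose acronyms happen to end in P, and MFSD14CP was not matched. Without these 4 genes, 37 pseudogenes rose and 55 fell in the comparison below. In GENCODE 29, 146 of the genes were found by identifier, name or older name with position: 81 as transcribed unprocessed pseudogenes, 23 as transcribed processed, 13 as transcribed unitary, 4 as unprocessed, 4 as protein-coding, and the rest under non-coding RNA classes. The symbol LSP1P5 stands for 2 separate genes.

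How closely a pseudogene copies its parent bears on how its reads can be assigned, and the following sequences show the range among genes described below. Each is an 80-base stretch, 5′ to 3′, of the pseudogene's GENCODE 29 transcript and of the matching coding transcript, on GRCh38. Capitals mark the bases at which the 2 differ. GTF2IP4 (chr7:73179087-73179166, plus strand) and GTF2I (chr7:74732479-74732558, plus strand) are shown because this stretch differs at 1 base, and the full alignment was 99.8% identical over 2053 bases.
GTF2IP4: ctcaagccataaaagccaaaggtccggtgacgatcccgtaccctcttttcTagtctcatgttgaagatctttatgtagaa
GTF2I: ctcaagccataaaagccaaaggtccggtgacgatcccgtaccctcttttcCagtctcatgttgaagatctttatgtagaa

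UBBP4 (chr17:22204369-22204448, plus strand) had one of the largest decreases and differs from UBB (chr17:16381956-16382035, plus strand) at 3 bases here, with 96.1% identity over 687 bases.
UBBP4: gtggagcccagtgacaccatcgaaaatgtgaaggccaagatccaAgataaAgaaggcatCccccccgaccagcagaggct
UBB: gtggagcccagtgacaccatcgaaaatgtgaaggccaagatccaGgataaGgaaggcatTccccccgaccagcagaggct

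RPSAP52 and RPLP0P2, processed copies of ribosomal protein mRNAs that moved in opposite directions, differ more from their parents. RPSAP52 (chr12:65758788-65758867, minus strand) and RPSA (chr3:39408606-39408685, plus strand) differ at 8 bases and were 89.9% identical over 900 bases. RPLP0P2 (chr11:61636734-61636813, plus strand) and RPLP0 (chr12:120199406-120199485, minus strand) differ at 5 and were 93.6% identical over 958 bases.
RPSAP52: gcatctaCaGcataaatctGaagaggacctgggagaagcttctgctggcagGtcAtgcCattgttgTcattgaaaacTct
RPSA: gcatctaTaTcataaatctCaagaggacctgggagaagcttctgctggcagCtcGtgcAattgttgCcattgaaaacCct
RPLP0P2: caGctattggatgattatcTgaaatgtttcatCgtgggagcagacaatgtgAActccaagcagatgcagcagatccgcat
RPLP0: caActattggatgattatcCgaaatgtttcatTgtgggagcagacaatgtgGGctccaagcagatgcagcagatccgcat

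ZNF542P (chr19:56377089-56377168, plus strand), with a large increase, is a diverged zinc finger gene. Its closest coding sequence, ZNF583 (chr19:56423422-56423501, plus strand), differs at 19 of these bases and was 70.0% identical over 933 bases.
ZNF542P: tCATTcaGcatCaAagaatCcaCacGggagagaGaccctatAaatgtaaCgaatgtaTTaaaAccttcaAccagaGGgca
ZNF583: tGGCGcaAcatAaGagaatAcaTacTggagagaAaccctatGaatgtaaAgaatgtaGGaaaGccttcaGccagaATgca

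The first comparison asked how many of the pseudogenes differed between SiSFPQ and SiCtrl cells, and in which direction. Of the 164 genes, 38 (23.2%) rose and 55 (33.5%) fell in SiSFPQ cells at an adjusted p below 0.05 in edgeR's quasi-likelihood test, with Benjamini-Hochberg adjustment over all 6325 genes tested. Together 56.7% were called. Over all tested genes 48.4% were called, 24.5% as higher and 24.0% as lower. The share of pseudogenes called higher, 23.2%, was thus near the background, and the share called lower, 33.5%, was above it. Among the 5933 other tested genes with a sum of at least 60 counts, 48.7% were called, 24.7% as higher and 24.0% as lower. No test was made of the difference between these shares. The other genes share only the minimum of 60 counts and were not matched in level, on which calling also depends.

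The median log2 fold change (SiSFPQ over SiCtrl) was −0.12 over the pseudogenes and 0.01 over all tested genes. Their median absolute log2 fold change was 0.40, against 0.38 in the other genes of that count range, so the pseudogenes lay a little lower, with a spread of much the same size. The 3 SiSFPQ libraries did not overlap the 3 SiCtrl libraries in CPM for 105 pseudogenes (64.0%), against 54.0% of all tested genes. An absolute log2 fold change of at least 1 with a call was reached by 12 genes that rose and 5 that fell, together 10.4%, against 12.2% of all tested genes. In the plot of all 164 changes in rank order, most calls lay within 1 log2 unit of zero, and the upper end reached farther than the lower end. The strong changes include genes, named below, that passed the filter on low counts through 1 group alone, so that their direction was in part fixed by it. Among the genes that passed through both groups the log2 fold changes ran from −1.49 to 2.05.

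**Figure D1:**
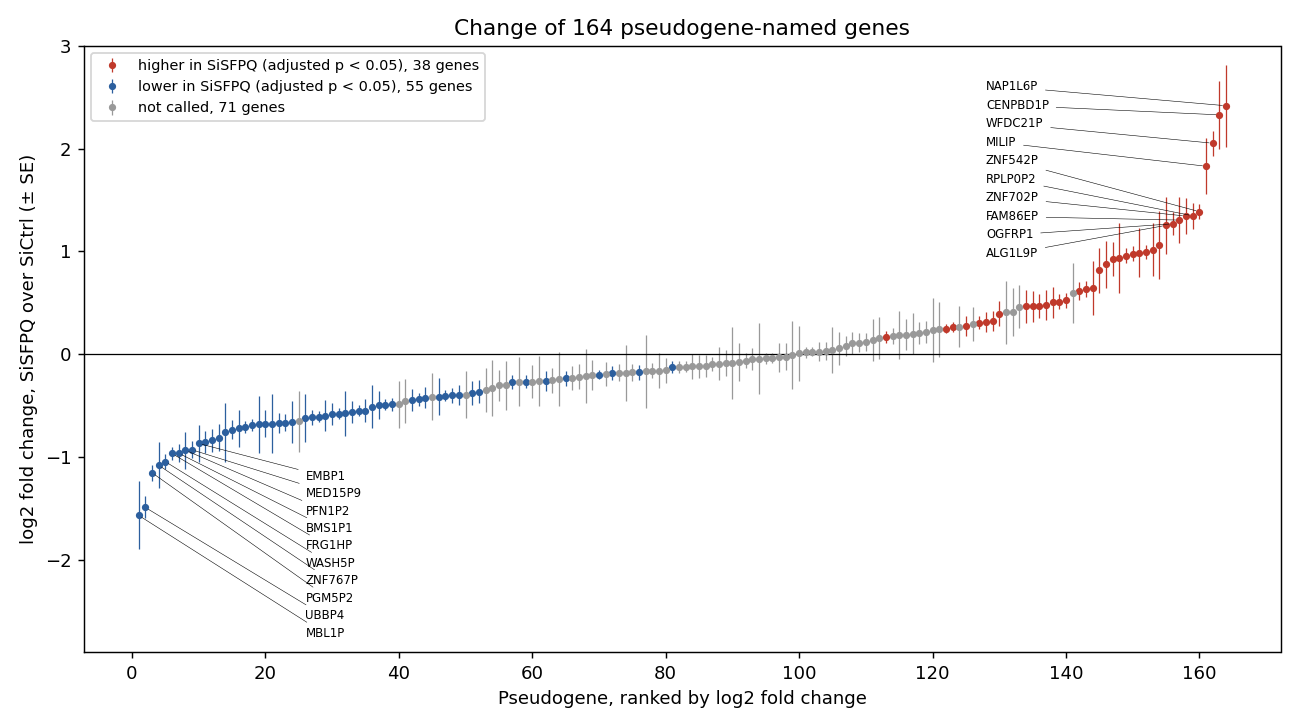
Log2 fold change (SiSFPQ over SiCtrl, vertical axis, with its standard error as bars) of each of the 164 pseudogene-named genes, ranked from lowest to highest along the horizontal axis; red marks the 38 called higher, blue the 55 called lower and grey the 71 not called at an adjusted p of 0.05. The 10 largest named increases run from ALG1L9P at 1.25 to NAP1L6P at 2.42, and the 10 largest named decreases from EMBP1 at −0.87 to MBL1P at −1.57. NAP1L6P, CENPBD1P and MILIP passed the filter on low counts through SiSFPQ alone, and MBL1P through SiCtrl alone.

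The filter on low counts was passed by 153 of the genes through both groups. Of these, 33 (21.6%) rose and 53 (34.6%) fell, against 24.5% and 24.0% of all tested genes. Of the remaining genes, 5 passed through their SiSFPQ counts alone, so their increase was in part fixed by the filter: MILIP, CENPBD1P, NAP1L6P, DNM1P35 and PTPRVP. Another 3, MBL1P, ECEL1P2 and CDRT15P3, passed through their SiCtrl counts alone, and 2 of them fell. The other 3 passed through a mixture of both. At the limit set by the choice of genes, CEACAM22P, GBP1P1 and CYP2T1P lay just inside with sums of 68, 70 and 71 counts, and ZNF56P, NMRAL2P and CMAHP just outside with 59, 58 and 57.

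Taken as a share of all counts in the table, the pseudogenes held 3.53%, 3.57% and 3.57% in the SiSFPQ libraries and 3.69%, 3.60% and 3.70% in the SiCtrl libraries. The means were 3.56 ± 0.0236% in SiSFPQ and 3.67 ± 0.0542% in SiCtrl (SD, n = 3 each). Every SiSFPQ library lay below every SiCtrl library, and the difference in means was −0.109 percentage points. These shares use plain totals. The TMM factors, 1.02 to 1.03 in SiSFPQ and 0.976 to 0.981 in SiCtrl, enter only CPM and the log2 fold changes. Shares and log2 fold changes are therefore on different scales. For the genes that overlap no coding exon the shares were 2.23 ± 0.0137% in SiSFPQ and 2.26 ± 0.0354% in SiCtrl, and the groups overlapped. Here and below, a gene lies over coding exons when its listed position, introns included, overlaps exons of a coding gene. Only for the 18 genes whose identifiers are in GENCODE 29 were their own exons used, so for the others an overlap of exon with exon was not shown.

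By CPM, which is not corrected for length, the 4 most abundant pseudogenes were AHSA2P and 3 relatives of DUXA, a double homeobox gene of the early embryo. DUXAP8, DUXAP9 and DUXAP10 held 22.2% of all pseudogene counts, and the 8 most abundant genes 39.3%. DUXAP8 RNA is known from several cancers, where it has been studied as a long non-coding RNA. DUXAP8 (ENSG00000206195, chr22:15784886-15877449) had 2749, 2672 and 2720 CPM in SiSFPQ cells and 2366, 2233 and 2253 CPM in SiCtrl cells. Its log2 fold change was 0.25 ± 0.05 (SE; edgeR adjusted p = 2.4e-07), a small rise with no overlap between the groups. DUXAP9 (chr14:19062294-19131213) had 1900, 1881 and 1934 CPM in SiSFPQ cells and 1616, 1553 and 1592 CPM in SiCtrl cells, and rose by nearly the same log2 fold change, 0.26 ± 0.05 (edgeR adjusted p = 1.6e-07).

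DUXAP10 (ENSG00000292986, chr14:19268701-19337691), the highest of all the pseudogenes by CPM, had 3915, 3966 and 3969 CPM in SiSFPQ cells and 4069, 3780 and 3818 CPM in SiCtrl cells. The groups overlapped and the log2 fold change was 0.02 ± 0.04 (edgeR adjusted p = 0.69). The transcripts of DUXAP8 and DUXAP9 were 99.7% identical over 1794 bases, and those of DUXAP9 and DUXAP10 97.0% over 826 bases. How the counting placed reads that fit more than 1 copy is not given in the sources used here, so the levels of the single copies are uncertain. Summed, the 3 genes held 0.860 ± 0.00477% of table counts in SiSFPQ and 0.746 ± 0.0239% in SiCtrl (SD, n = 3 each). These shares, unlike the CPM values, are without TMM factors.

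The other 5 of the 8 most abundant genes did not rise. GTF2IP4 (ENSG00000293241, chr7:73154938-73206319), a copy of GTF2I, the gene for the transcription factor TFII-I in the Williams syndrome region, had 758, 818 and 809 CPM in SiSFPQ cells and 1188, 1226 and 1225 CPM in SiCtrl cells. Every SiSFPQ value lay below every SiCtrl value, at −0.61 ± 0.05 on the log2 scale (edgeR adjusted p = 4.0e-30). CATSPER2P1 (chr15:43726741-43746739), a copy of the sperm calcium channel gene CATSPER2, had 863, 886 and 816 CPM in SiSFPQ cells and 1322, 1220 and 1292 CPM in SiCtrl cells, and fell, at −0.58 ± 0.05 on the log2 scale (edgeR adjusted p = 4.8e-28). It lies over exons of the coding gene PDIA3, whose reads may be counted with it.

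POLR1HASP (chr6:29862624-30067051) lies over exons of coding genes, PPP1R11 and ZNRD1 among them. It had 1028, 995 and 993 CPM in SiSFPQ cells and 1352, 1355 and 1276 CPM in SiCtrl cells, and its log2 fold change was −0.40 ± 0.05 (edgeR adjusted p = 1.9e-14). AHSA2P (chr2:61177418-61189098), a relative of an HSP90 co-chaperone gene that lies over exons of USP34, fell by less: it had 1801, 1879 and 1732 CPM in SiSFPQ cells and 2168, 2038 and 2009 CPM in SiCtrl cells, at −0.20 ± 0.05 on the log2 scale (edgeR adjusted p = 7.9e-05). MTMR9LP (chr1:32223618-32241643), a myotubularin-related pseudogene over exons of EIF3I, had 1101, 1092 and 1089 CPM in SiSFPQ cells and 1091, 1080 and 1205 CPM in SiCtrl cells and did not pass the test, at −0.04 ± 0.05 on the log2 scale (edgeR adjusted p = 0.54).

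Levels of different genes can be compared only per length. Per kilobase of exon, the mean level was highest for DUXAP10 in SiSFPQ cells, at 249 CPM per kb, with 245 in SiCtrl cells. CATSPER2P1 had 193 CPM per kb in SiSFPQ cells and 289 in SiCtrl cells, so that in SiCtrl cells it stood above DUXAP10. GTF2IP4 had 165 and DUXAP8 185 CPM per kb in SiSFPQ cells, and in SiCtrl cells GTF2IP4 had 252 and DUXAP8 155. The order of these 2 genes per length therefore differed between the groups.

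**Figure D2:**
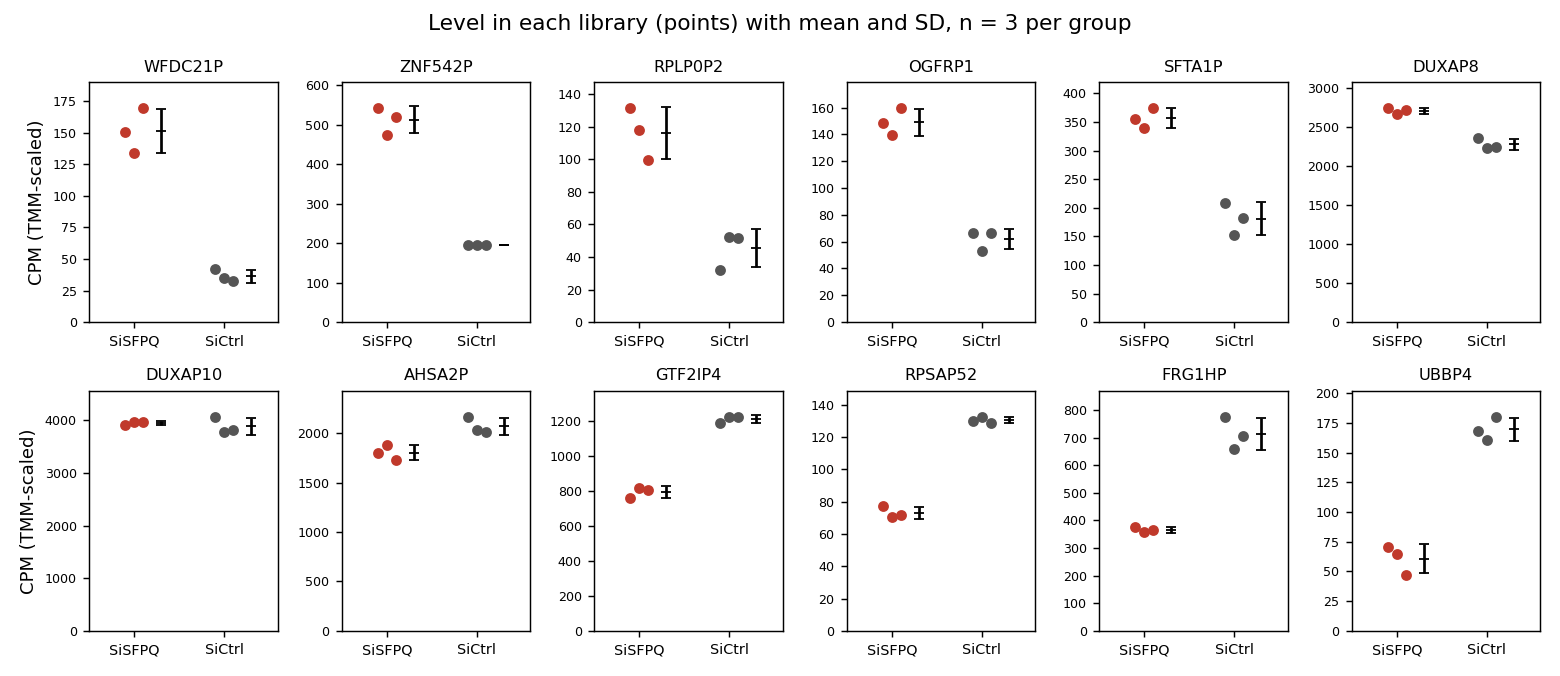
CPM (TMM-scaled, vertical axes from 0) of 12 pseudogenes in each of the 3 SiSFPQ libraries (red points, left) and 3 SiCtrl libraries (grey points, right), with the mean and SD beside them. WFDC21P, ZNF542P, RPLP0P2, OGFRP1, SFTA1P and DUXAP8 are higher in every SiSFPQ library, AHSA2P, GTF2IP4, RPSAP52, FRG1HP and UBBP4 lower in every one, and the groups overlap for DUXAP10.

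Among the genes that passed the filter through both groups, the largest change was that of WFDC21P (ENSG00000293515, chr17:60083560-60091956), a unitary pseudogene of a whey acidic protein family gene whose RNA is known as lnc-DC from human dendritic cells, where it binds STAT3. It had 150, 134 and 169 CPM in SiSFPQ cells and 42.1, 34.7 and 32.2 CPM in SiCtrl cells. The lowest SiSFPQ library lay far above the highest SiCtrl library, and the log2 fold change was 2.05 ± 0.12 (edgeR adjusted p = 1.0e-59). Its listed position, introns included, overlaps HEATR6-DT, a divergent transcript. Whether exons of the 2 genes overlap was not computed, and where they do, their reads may not be told apart.

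ZNF542P (ENSG00000290720, chr19:56368099-56377208), from the zinc finger cluster of chromosome 19, had 542, 475 and 520 CPM in SiSFPQ cells and 196, 196 and 195 CPM in SiCtrl cells. Its SiCtrl libraries hardly differed from each other, and the log2 fold change was 1.39 ± 0.07 (edgeR adjusted p = 9.5e-84). Its position overlaps exons of the coding genes ZNF582 and ZSCAN5A. OGFRP1 (ENSG00000182057, chr22:42269703-42276954), named after the opioid growth factor receptor, overlaps no coding exon and no other listed gene with at least 60 counts. It had 148, 140 and 160 CPM in SiSFPQ cells and 66.4, 53.0 and 66.6 CPM in SiCtrl cells, which gave 1.27 ± 0.11 on the log2 scale (edgeR adjusted p = 3.5e-29).

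RPLP0P2 (ENSG00000293352, chr11:61614987-61637789), a processed copy of the mRNA for RPLP0, the stalk protein of the large ribosomal subunit, had 131, 118 and 99.6 CPM in SiSFPQ cells and 32.1, 52.3 and 51.6 CPM in SiCtrl cells. The groups did not overlap and the log2 fold change was 1.35 ± 0.12 (edgeR adjusted p = 7.0e-26). The rest of the 10 largest increases were in genes of lower level, of which NAP1L6P, CENPBD1P and MILIP passed the filter through their SiSFPQ counts alone. NAP1L6P on chromosome X, of the nucleosome assembly protein family, averaged 14.2 ± 4.61 CPM in SiSFPQ cells and 2.62 ± 0.830 CPM in SiCtrl cells (SD, n = 3 each; log2 fold change 2.42). CENPBD1P averaged 20.9 ± 4.46 CPM in SiSFPQ cells and 4.02 ± 0.642 CPM in SiCtrl cells (log2 fold change 2.33), and GENCODE 29 lists it as a coding gene.

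AFG3L1P, the gene next to CENPBD1P on chromosome 16 and on the other strand, fell; its listed position overlaps an exon of the coding entry CENPBD1. It was looked at after its value was seen, and had 97.0, 125 and 110 CPM in SiSFPQ cells and 169, 190 and 198 CPM in SiCtrl cells, which gave −0.74 on the log2 scale (edgeR adjusted p = 3.7e-14). MILIP, an RNA known as a MYC-induced inhibitor of p53 and not a pseudogene, rose by a log2 fold of 1.83, and ZNF702P, FAM86EP and ALG1L9P by 1.34, 1.31 and 1.25. SFTA1P (ENSG00000225383, chr10:10784436-10798639), a surfactant-associated pseudogene studied as a long non-coding RNA in lung cancer, had 354, 339 and 374 CPM in SiSFPQ cells and 208, 152 and 183 CPM in SiCtrl cells. It rose with no overlap of the groups, by 0.98 ± 0.08 on the log2 scale (edgeR adjusted p = 6.6e-37).

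Among the genes that fell, MBL1P had the lowest log2 fold change but few counts. It is the remnant of a mannose-binding lectin gene of innate immunity, and had 2.29, 9.34 and 3.23 CPM in SiSFPQ cells and 17.1, 13.6 and 15.7 CPM in SiCtrl cells (log2 fold change −1.57). It passed the filter on low counts through its SiCtrl counts alone, so its call is no independent support for a decrease. UBBP4 (ENSG00000290919, chr17:22090665-22205156), a copy of UBB, which encodes polyubiquitin, had 70.3, 64.8 and 47.2 CPM in SiSFPQ cells and 168, 161 and 180 CPM in SiCtrl cells. No SiSFPQ library came near the SiCtrl range, and the log2 fold change was −1.49 ± 0.11 (edgeR adjusted p = 5.8e-42). UBB is a coding gene and was not analysed here, so reads of UBB placed on its copy cannot be told apart from reads of UBBP4.

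The listed positions of a pair of neighbours on chromosome 9, PGM5P2 and FRG1HP, share 82885 bases, introns included, on opposite strands. They are the only pair among the 164 whose positions overlap. PGM5P2 (chr9:40900523-41074949), a copy of the phosphoglucomutase-like gene PGM5, had 155, 145 and 140 CPM in SiSFPQ cells and 331, 319 and 327 CPM in SiCtrl cells, which gave −1.15 ± 0.08 on the log2 scale (edgeR adjusted p = 6.1e-46). FRG1HP (chr9:40992065-41089908) is a copy of FRG1, a gene next to the repeat array of facioscapulohumeral muscular dystrophy. It had 376, 357 and 364 CPM in SiSFPQ cells and 776, 660 and 705 CPM in SiCtrl cells, which gave −0.97 ± 0.06 on the log2 scale (edgeR adjusted p = 9.6e-55). As the counting did not keep strands apart, the 2 genes may share reads where their exons overlap, which was not computed.

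WASH5P (chr19:60951-72334), near the end of the short arm of chromosome 19, belongs to the copies of the WASH gene, whose protein drives actin assembly on endosomes. It had 178, 156 and 184 CPM in SiSFPQ cells and 353, 349 and 366 CPM in SiCtrl cells, at −1.04 ± 0.08 on the log2 scale (edgeR adjusted p = 1.9e-41). BMS1P1 (chr10:46786674-46815125), a copy of the GTPase gene BMS1 of small ribosomal subunit assembly, averaged 111 ± 8.36 CPM in SiSFPQ cells and 216 ± 3.99 CPM in SiCtrl cells (SD, n = 3 each). MED15P9, a copy of a Mediator subunit gene that lies over exons of CCDC74B, averaged 141 ± 8.48 CPM in SiSFPQ cells and 270 ± 8.37 CPM in SiCtrl cells (SD, n = 3 each). The log2 fold changes were −0.96 for BMS1P1 and −0.93 for MED15P9, and those of the low-level ZNF767P, PFN1P2 (from the actin-binding profilin gene) and EMBP1 (from embigin, a membrane glycoprotein) were −1.08, −0.93 and −0.87.

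Genes that share a name stem were set side by side, since they are copies of 1 parent or relatives of 1 family. Over all tested genes 24.5% were called higher and 24.0% lower, and no stem was tested against these shares. Copies of 1 parent may share reads, so their changes are not independent of each other. Each of the 3 WASH copies fell, with log2 fold changes of −0.44 for WASH7P and −0.27 for WASH9P beside that of WASH5P. Each of the 3 FRG1 copies fell as well, on 2 chromosomes, with FRG1HP at −0.97, FRG1JP at −0.58 and FRG1BP at −0.42. The transcripts of FRG1BP and FRG1JP were 93.3% identical over 781 bases. FRG1JP had 71.8, 88.5 and 78.2 CPM in SiSFPQ cells and 124, 104 and 132 CPM in SiCtrl cells, with no overlap.

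GTF2IP1 (chr7:75185383-75237411) had 418, 422 and 422 CPM in SiSFPQ cells and 674, 699 and 664 CPM in SiCtrl cells, and fell, at −0.69 ± 0.06 on the log2 scale (edgeR adjusted p = 3.7e-29). Its transcript matched that of GTF2IP4 at 99.8% over 3609 bases, so the decreases of these 2 copies may share reads with each other and with GTF2I. GTF2IRD1P1, of the related gene GTF2IRD1, was not called (−0.35, edgeR adjusted p = 0.18). HERC2P3 had 432, 447 and 396 CPM in SiSFPQ cells and 692, 668 and 722 CPM in SiCtrl cells (log2 fold change −0.71), and HERC2P9 fell too (−0.40). Both derive from the ubiquitin ligase gene HERC2, and their transcripts were 99.0% identical over 1172 bases, so they may share reads. SDHAP1 and SDHAP3, copies of the gene for the flavoprotein of succinate dehydrogenase, fell, at log2 fold changes of −0.24 and −0.49, and the cytochrome P450 relatives CYP4F30P and CYP4F35P fell at −0.85 and −0.36; the call of CYP4F35P was lost in DESeq2 (adjusted p = 0.0849). BMS1P4 fell at −0.55, while BMS1P14 was at 0.01 and not called.

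The FAM86 copies, relatives of the methyltransferase gene of elongation factor 2, went the other way or were not called. FAM86EP rose by 1.31, FAM86JP by 0.51 and FAM86DP by 0.32 on the log2 scale; FAM86B3P at 0.06 and FAM86FP at −0.45 were not called (edgeR adjusted p = 0.79 and 0.068). FAM86JP and FAM86DP lost their calls in DESeq2 (adjusted p = 0.0947 and 0.0877), and FAM86FP was called lower without SiCtrl replicate 3 (edgeR adjusted p = 0.0165) and without SiSFPQ replicate 3 (0.0209). FAM86EP had 31.3, 34.9 and 34.3 CPM in SiSFPQ cells and 14.3, 10.2 and 16.5 CPM in SiCtrl cells. FAM86JP and FAM86EP were 95.5% identical over 1032 bases.

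Of the 8 genes with a ZNF symbol, pseudogenes of zinc finger genes, 4 rose and 2 fell, with a median log2 fold change of 0.62, against 24.5% higher and 24.0% lower and a median of 0.01 over all tested genes. Besides ZNF542P and ZNF702P, ZNF252P had 526, 475 and 484 CPM in SiSFPQ cells and 244, 237 and 261 CPM in SiCtrl cells, which gave 1.00 ± 0.07 on the log2 scale (edgeR adjusted p = 4.9e-47). ZNF271P had 262, 249 and 282 CPM in SiSFPQ cells and 171, 175 and 163 CPM in SiCtrl cells (log2 fold change 0.64), also without overlap. ZNF767P and ZNF37BP fell, with log2 fold changes of −1.08 and −0.18, and ZNF321P and ZNF833P were not called, at 0.60 and −0.26. The small decrease of ZNF37BP lost its call under plain library totals, without a filter, in DESeq2 and in 4 of the 6 fits that left out a library, with adjusted p-values of 0.0505 to 0.19, and ZNF321P was called higher under plain library totals (0.0468).

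**Figure D3:**
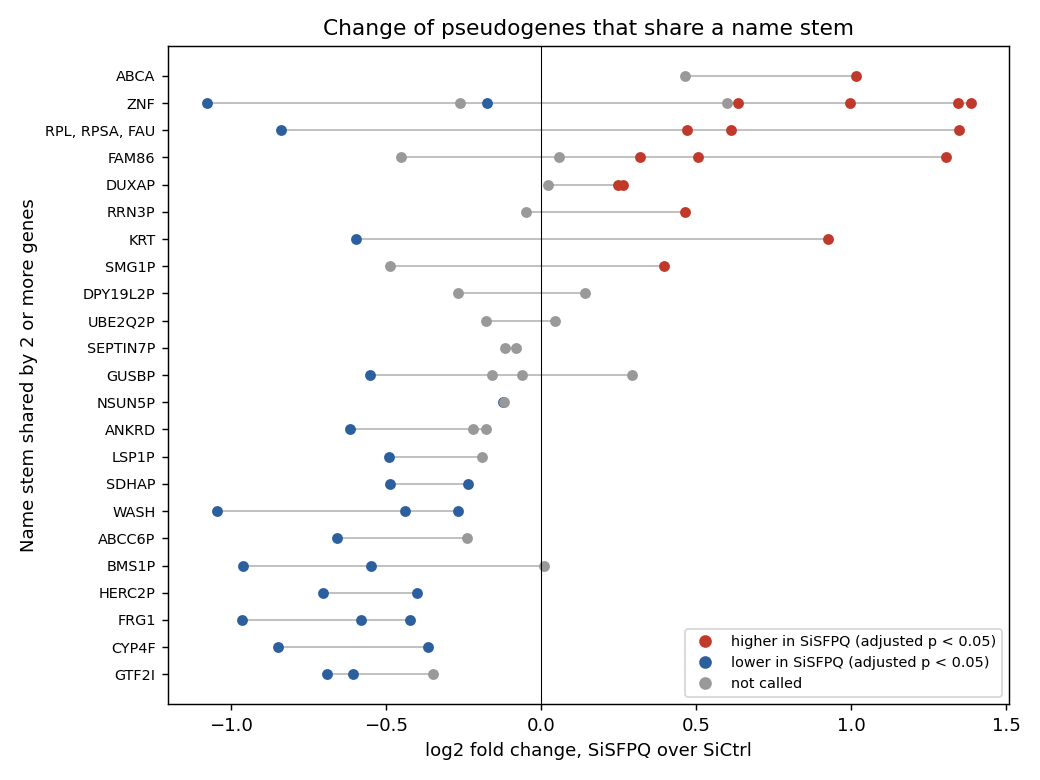
Log2 fold change (SiSFPQ over SiCtrl, horizontal axis) of each pseudogene that shares a name stem with at least 1 other, 1 stem per line, with points coloured by call at an adjusted p of 0.05 and a grey line over the range of the stem. The GTF2I, CYP4F, FRG1, HERC2P, WASH and SDHAP lines are among those that lie wholly below 0, and the ABCA and DUXAP lines wholly above it.

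The families defined by symbol prefix gave the following counts. The 34 genes matched by prefixes listed for segmental duplication included 6 that rose, 12 that fell and 16 not called, with a median log2 fold change of −0.20. That is 17.6% higher and 35.3% lower, against 24.5% and 24.0% of all tested genes. Duplication itself was not annotated, and copies such as those of FRG1, BMS1 and SDHA fall outside these prefixes. The ribosomal protein prefixes gave 3 genes, of which RPLP0P2 and RPL23AP7 rose and RPSAP52 fell. RPL23AP7 had 215, 224 and 218 CPM in SiSFPQ cells and 136, 147 and 147 CPM in SiCtrl cells (log2 fold change 0.61), and lies over exons of RABL2A. FAUP4, a copy of FAU, whose product holds ribosomal protein S30, rose by 0.47.

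RPSAP52 (ENSG00000293176, chr12:65728513-65826974), a processed copy of the laminin receptor and ribosomal protein gene RPSA that lies antisense over exons of HMGA2, had 77.1, 70.4 and 71.8 CPM in SiSFPQ cells and 130, 132 and 129 CPM in SiCtrl cells. The groups were tight and apart, at −0.84 ± 0.11 on the log2 scale (edgeR adjusted p = 1.6e-13). RPSAP52 RNA is known from sarcoma and other cancer cells for acting with HMGA2 and IGF2BP2. HMGA2 was not analysed here. Whether exons of RPSAP52 overlap those of HMGA2 was not computed, and where they do, reads of the genes cannot be told apart. Of the 4 genes with protein turnover prefixes UBBP4 fell (25.0%) and the others were not called, against 24.0% called lower over all tested genes. Of the 4 matched by prefixes listed for metabolic enzymes 2 fell, PGAM1P5 and GBA1LP, against 24.0% called lower over all tested genes. Both calls were lost in other settings, given below. The others, MTMR9LP and MT1JP, were not called. A match by prefix does not show that a gene derives from a metabolic enzyme gene, and MTMR9LP is the myotubularin-related pseudogene described above. No gene had a prefix of the RNA handling list.

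Some of the pseudogenes have published roles. GBP1P1, a copy of an interferon-induced guanylate-binding protein gene, was at the limit of counting, at 7.74 ± 1.43 CPM in SiSFPQ cells and 8.28 ± 3.52 CPM in SiCtrl cells (SD, n = 3 each).

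GBA1LP, formerly GBAP1, a copy of the glucocerebrosidase gene, had 321, 363 and 344 CPM in SiSFPQ cells and 378, 372 and 421 CPM in SiCtrl cells. Its log2 fold change of −0.18 ± 0.07 was called (edgeR adjusted p = 0.014), but the call was lost at adjusted p-values of 0.122 with plain library totals, 0.12 in DESeq2, 0.104 without SiCtrl replicate 3 and 0.105 without SiSFPQ replicate 1. PGAM1P5, a copy of the glycolytic mutase gene PGAM1, had 9.93, 8.10 and 11.0 CPM in SiSFPQ cells and 24.3, 11.6 and 13.5 CPM in SiCtrl cells. Its log2 fold change of −0.76 (edgeR adjusted p = 0.018) rested on SiCtrl replicate 1: without that library it was −0.38, with an adjusted p of 0.387. Its adjusted p was 0.0917 without SiSFPQ replicate 2, 0.239 in DESeq2 and 0.0572 with no filter.

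The 3 largest annotated classes of pseudogene each held genes that rose and genes that fell, and of the 4 unprocessed ones with no transcribed tag 3 fell. Of the 81 transcribed unprocessed pseudogenes 15 (18.5%) rose and 30 (37.0%) fell, with a median log2 fold change of −0.18. Of the 23 transcribed processed ones 6 (26.1%) rose and 8 (34.8%) fell, with a median of 0.02, and of the 13 unitary ones 5 (38.5%) rose and 4 (30.8%) fell, with a median of −0.04. These shares stand beside 24.5% higher and 24.0% lower over all tested genes, and the classes were not tested against each other. Of the 61 genes that overlap exons of coding genes 15 (24.6%) rose and 19 (31.1%) fell, with a median of −0.12. Of the 103 that overlap none 23 (22.3%) rose and 36 (35.0%) fell, with a median of −0.18. Their summed share of table counts differed by −0.0316 percentage points with the groups overlapping. That share is without TMM factors, so it cannot be set against the calls and the median, which use them. The part of reads from overlapping coding genes in these counts was not tested. Another gene of the table with at least 60 counts overlapped 69 of the 164.

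A closest coding sequence was found for 92 of the genes by aligning GENCODE 29 transcripts with BLAST. Identity ran from 69.3% to 99.8%, with a median of 93.9%, and the longest stretch without a mismatch from 16 to 1276 bases, with a median of 104.5. Of the 38 genes with an identity of at least 95%, 6 (15.8%) rose and 20 (52.6%) fell, with a median log2 fold change of −0.27. Of the 54 under 95%, 15 (27.8%) rose and 17 (31.5%) fell, with a median of −0.17. Over all tested genes 24.5% were called higher and 24.0% lower, with a median of 0.01, and the difference between the 2 identity classes was not tested. Across the 92 genes Spearman's rho between identity and log2 fold change was −0.25, given as a description, since copies of 1 parent share sequence and may share reads.

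Genes with high identity also rose. SBDSP1 (chr7:72829374-72837376), a copy of the ribosome maturation gene SBDS at 95.4% identity, had 380, 347 and 341 CPM in SiSFPQ cells and 203, 177 and 168 CPM in SiCtrl cells. Its log2 fold change was 0.96 ± 0.07 (edgeR adjusted p = 1.3e-35), with the groups far apart. Spearman's rho with the log2 fold change was −0.22 for the longest identical stretch over the 92 genes, −0.03 for exonic length and −0.13 for mean CPM over all 164.

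**Figure D4:**
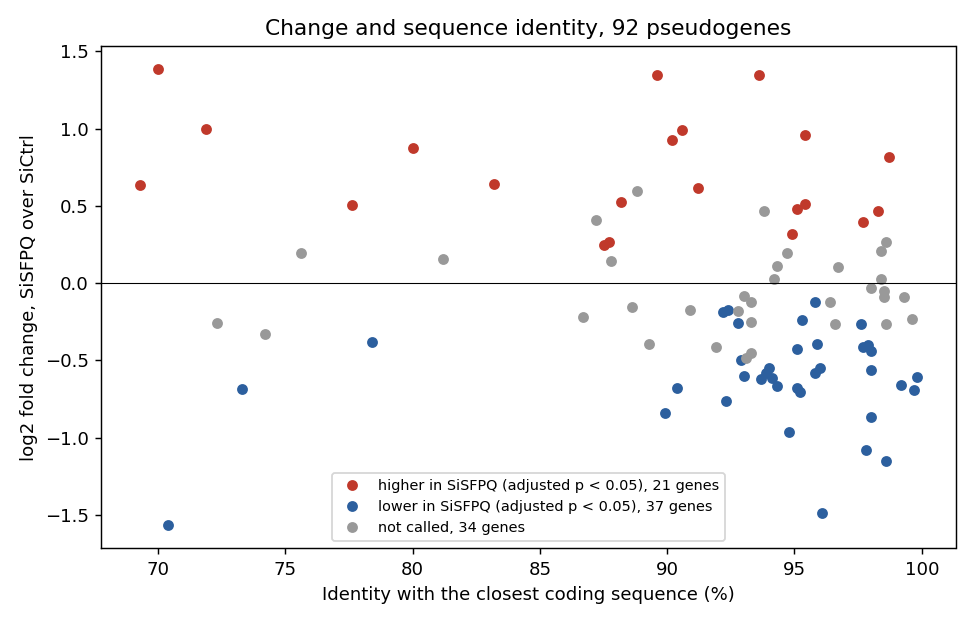
Identity with the closest coding sequence (percent, horizontal axis) and log2 fold change (SiSFPQ over SiCtrl, vertical axis) of the 92 pseudogenes with such a sequence, coloured by call at an adjusted p of 0.05. Genes at 95% or more include 20 called lower and 6 called higher, and genes under 95% include 17 called lower and 15 called higher.

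Mean levels over the 6 libraries ran from 7.90 to 3919 CPM, with a median of 79.2, and 69 of the genes reached 100 CPM. On the plot of change against level the pseudogenes were spread over nearly the whole range of the tested genes. At 3919 CPM DUXAP10 stood at its upper end among the pseudogenes, and the changes above 2 log2 units were in NAP1L6P, CENPBD1P and WFDC21P.

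**Figure D5:**
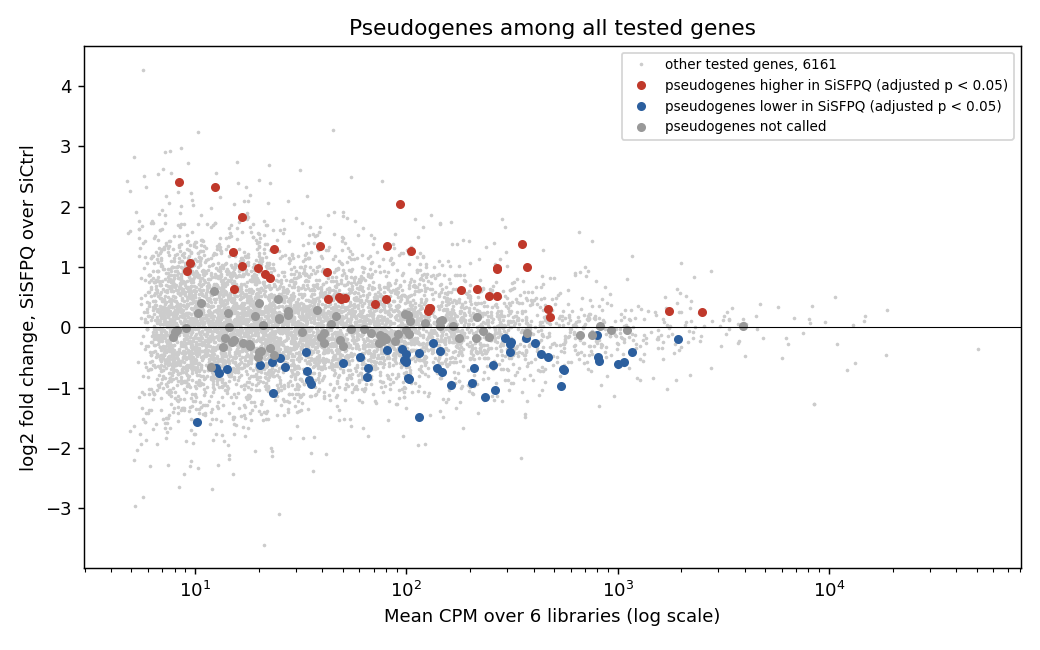
Mean CPM over the 6 libraries (log scale, horizontal axis) and log2 fold change (SiSFPQ over SiCtrl, vertical axis) of the 164 pseudogenes, coloured by call at an adjusted p of 0.05, over the other 6161 tested genes in light grey. The pseudogenes reach from 7.90 to 3919 CPM, and their log2 fold changes from −1.57 to 2.42, within the range of the other genes.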

How the data were processed

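The deposited table held raw read counts per gene, per the file headers, for 6 poly(A)-selected stranded libraries; the aligner, counting program, annotation and build are not given in the sources used here. All 18 genes of the set whose identifiers are in GENCODE 29 overlapped their GRCh38 positions, so listed coordinates were read as GRCh38. The set, its lists and the rules for naming genes were chosen with earlier results of these data known. Named genes were the 10 largest called increases and decreases without overlap of the groups, the 8 most abundant, and those with published roles, 1 of which is not reported here; AFG3L1P, SBDSP1 and the further copies of a family were added after their values were seen.

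Differences were tested two-sided in R 4.3.3 by robust quasi-likelihood fits of edgeR 4.0.16, with group as the sole term, TMM factors and the filterByExpr filter. Standard errors were taken from the fold change and its F statistic. Coding sequences were aligned with BLAST+ 2.17.0 (same strand, at least 300 bases, e-value of at most 1e-20). Gene classes came from RefSeq and GENCODE 29. On simulated counts of this comparison (6110 genes) the fit found 93 of 100 planted changes of 1 log2 unit and 61 of 100 of 0.5, and called 7 of 5910 unchanged genes. Changes were planted only in genes above a minimum mean count, and all genes were drawn at a common dispersion. Far fewer genes were changed than were called in the data, so these rates need not hold for the real counts or for genes of low count. Libraries of 1 group differed by more than sampling noise (chi-square p of at most 2.0e-36). Alternatives were other scalings, filters, DESeq2 1.42.0, limma-voom 3.58.1, the replicate number as a block, and fits without each library in turn.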

Additional observations from a re-analysis of the deposited data

How the results depend on the processing

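The pseudogene counts of 38 higher and 55 lower were within 1.5 times of these under RLE and upper-quartile scaling, plain library totals (43 higher and 48 lower), no filter, at least 1 CPM in 3 libraries, limma-voom and a sum of at least 120. Plain library totals also moved the calls over all genes, to 1762 higher and 1304 lower, against 1547 and 1516. DESeq2 called fewer: 25 higher and 39 lower among the pseudogenes, and 1753 of all genes (854 higher, 899 lower), against 3063 (1547 and 1516). A log2 fold of at least 1, chosen after seeing the data, left 12 higher and 5 lower. In every one of the 14 refits 25 of the 38 and 39 of the 55 kept their call. The share of all called genes that kept theirs was not computed. The median log2 fold change was −0.0565 with plain library totals. Leaving out 1 library at a time gave 34 to 39 pseudogenes higher, 48 to 58 lower, 2788 to 2899 genes in all, and medians of −0.1593 to −0.1014. The difference in the share of table counts was −0.109 percentage points, −0.1402 to −0.0897 without 1 library, and −0.0316 for genes without coding exon overlap. Why the other settings shifted these values was not tested.

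Same-numbered libraries did not deviate together (r of −0.0047, 0.0010 and 0.010), so no shared effect of the replicate number was seen. Counting noise also lowers these values, so they cannot tell whether same-numbered libraries were prepared as pairs. With a replicate block 39 pseudogenes were higher and 56 lower. Of 61 genes followed by name, 53 changed no call in these refits; the exceptions were GBA1LP, PGAM1P5, ZNF37BP, CYP4F35P, FAM86DP and FAM86JP, which lost a call, and ZNF321P and FAM86FP, which gained 1. None of the 61 turned its direction while called. The totals of the table set what could be detected: at the filter's minimum of 10 counts a gene is at 6.68 CPM.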
